A study of Homo sapiens with 6 samples.

Results

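The genes described are 6 S100 genes (S100A4, S100A6, S100A8, S100A9, S100A10 and S100A11), 3 annexin genes (ANXA1, ANXA2 and ANXA5) and the galectin-1 gene LGALS1. They were picked by symbol, and all 10 were found once each among the 35410 genes with counts. RNA had been measured by MACE-Seq, a sequencing of the 3′ ends of polyadenylated transcripts, in 6 libraries of the human proB leukemia cell line SEM, which carries the KMT2A::AFF1 fusion. SEM::mock (3 biological replicates) had been transfected with the empty vector and SEM::EGR3 (3 biological replicates) with an inducible vector for EGR3, a zinc finger transcription factor. Both lines had received 1 µg/mL doxycycline for 48 h, so that the inducer was shared and the vector differed. No library came from uninduced cells, and whether a line derived from 1 clone is not given in the sources used here. The comparison asks which of these genes differed in RNA level between the EGR3 expressing line and its control line.

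S100 proteins are small calcium sensors that change shape on binding calcium and then dock onto target proteins, most of them as dimers. Annexins bind phospholipid membranes when calcium rises, and several do so together with an S100 partner: annexin A2 with S100A10, and annexin A1 with S100A11. Galectin-1 binds galactose-containing glycans on the cell surface and on secreted proteins. S100A8 and S100A9 are abundant in neutrophils and monocytes, while several of the other genes are broadly expressed and are known from studies of leukemia cell adhesion, migration and survival.

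The libraries did not match the labelled cell type in every respect, and this bears on each result. Total counts ranged from 5286115 to 6181388 in the SEM::mock libraries and from 7293092 to 15106018 in those of SEM::EGR3, the deepest being SEM::EGR3 replicate 1. EGR3 counts were 6 to 10 in the control libraries and 4952 to 9768 in those carrying its vector. Of 16 markers of the B lineage, 9 had at most 3 counts in every SEM::mock library while being above that in SEM::EGR3, and 3 others were at that limit in both lines. EBF1 and IGHM had 0 counts in all SEM::mock libraries, and PAX5, the transcription factor that defines the lineage, had 1, 1 and 2. All 8 markers of KMT2A fusion targets were higher in SEM::EGR3, with HOXA7 at 0 counts in all 3 SEM::mock libraries. The expression sum of the B lineage markers was 135 to 158 CPM (counts scaled to a common library total, with TMM factors) in SEM::mock, mostly from CD24, and 695 to 723 in SEM::EGR3. Of the 12 tested B lineage markers 11 were higher in SEM::EGR3. CD24 went the other way, from 143 ± 11.2 CPM in SEM::mock to 23.4 ± 0.526 CPM in SEM::EGR3 (SD, n = 3). Markers of erythroid cells and megakaryocytes were abundant in both lines, at 5191 to 5487 CPM in SEM::mock and 6316 to 6560 in SEM::EGR3, and fetal globin HBG2 alone had between 7168 and 14158 counts in each library. HBB, the adult beta globin, had at most 2 counts. Differences that go with EGR3 and other differences between the lines cannot be told apart, because each line holds 1 vector.

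**Figure D1:**
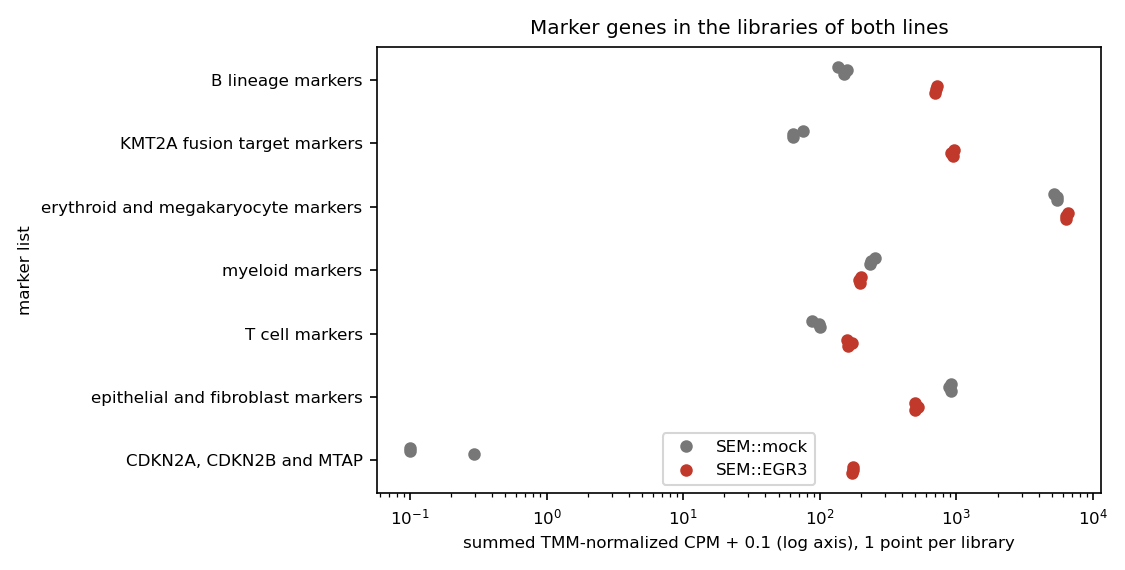
Summed level of each marker list in each library, as TMM-normalized CPM plus 0.1 on a log axis, with gray points for the 3 SEM::mock and red points for the 3 SEM::EGR3 libraries. The sums of the B lineage and KMT2A fusion target markers were higher in SEM::EGR3, and the erythroid and megakaryocyte list was the most abundant in both lines.

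The remaining marker lists also differed. Myeloid markers summed to 231 to 252 CPM in SEM::mock and 194 to 199 in SEM::EGR3, and the granule genes MPO and CTSG had 0 counts in all SEM::mock libraries, while LYZ had between 310 and 932 counts in each library. T cell markers summed to 87.2 to 99.5 CPM against 157 to 172, but they moved both ways. Of 7 tested, 4 were higher and 3 lower in SEM::EGR3. TRAC rose from 1.20 to 74.4 CPM, while CD3D fell from 58.0 to 6.23 CPM and TRBC1 from 31.8 to 1.69 CPM. Epithelial and fibroblast markers summed to 880 to 918 CPM against 494 to 527, with COL3A1 at 0 counts in all 6 libraries. The list of CDKN2A, CDKN2B and MTAP, genes often lost together in leukemia, summed to at most 0.195 CPM in SEM::mock and to 173 to 176 in SEM::EGR3. What these differences contribute to the results that follow was not tested. RNA was taken from whole cultures, in which fewer cells of a type and less RNA per cell cannot be told apart.

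The core promoters of these genes were of unlike kinds, and sequences of 8 of them are shown for that reason. RefSeq (GRCh38.p14) gave promoter windows of 300 bases, from 250 before to 50 after a start, for 9 of the 10 genes and 11 starts, with none for LGALS1. The letters TATAAA, searched on both strands, stood in the windows of 5 genes, against 11.5% of all 35116 windows. They are printed in capitals in the 30 bases that lie between 40 and 11 bases before the start, each written 5′ to 3′ on the gene's strand.
S100A4 (chr1:153545817-153545846, minus strand): tggctggggTATAAAtaggtcagacctctg
S100A8 (chr1:153391084-153391113, minus strand): agcctaaccgcTATAAAaaggagctgcctc
S100A9 (chr1:153357814-153357843, plus strand): caggagctgccTATAAAtgccgagcctgca
ANXA1 (chr9:73151825-73151854, plus strand): ttaaaatccTATAAAatcagaagcccaagt
ANXA2 (chr15:60397997-60398026, minus strand): tgtggcgggTATAAAagccccacccaggcc
S100A6 (chr1:153536002-153536031, minus strand): caccgaccgctataaggccagtcggactgc
S100A11 (chr1:152037015-152037044, minus strand): gtaaggcttgggcaaggctgggccgggaag
ANXA5 (chr4:121696991-121697020, minus strand): gggccggggtggggccgctggcgtttccgt
For S100A8, the stretch before 1 of its 3 starts is shown.

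CpG dinucleotides in the windows ranged from 0 in ANXA1, 2 in S100A8, 5 in S100A9 and 8 in S100A4 to 22 in S100A11, 31 in S100A6, 32 in S100A10 and ANXA2 and 36 in ANXA5. The median over all windows was 14. The GC box core GGGCGG, on either strand, was found for S100A6, S100A9, S100A10, S100A11, ANXA2 and ANXA5, against 45.0% of all windows. The letters GTGGGCG, the core of the EGR motif, which can overlap a GC box, stood in 0 of the 11 windows and in 9.52% of all windows. A match describes the letters of these windows and is no evidence of binding.

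Of the 10 genes, 8 had enough counts for the test across 15465 genes, and all 8 differed between the lines at an adjusted p under 0.05. S100A4, S100A6 and S100A10 were higher in SEM::EGR3, and S100A11, ANXA1, ANXA2, ANXA5 and LGALS1 were lower. S100A6 passed the count filter only through its SEM::EGR3 counts, so its call as higher was nearly given by its entry into the test. Across all tested genes 68.5% passed the same threshold, 36.5% higher and 32% lower, so a call by itself says little about these genes. When a log2 fold change of 1 or more in size was also required, 5 of the 8 passed, 4 of them lower, where 25.2% of all tested genes did so and 8.5% were lower. For all 8 tested genes the libraries of the lines did not overlap, which held for 70.2% of all tested genes. The median log2 fold change of the 8 was -0.81, beside 0.03 over all tested genes. No test of the list as a whole was made. In a test of single genes over the libraries, the exact permutation p (two-sided) was 0.1 for each gene, the smallest that 3 against 3 libraries allow.

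**Figure D2:**
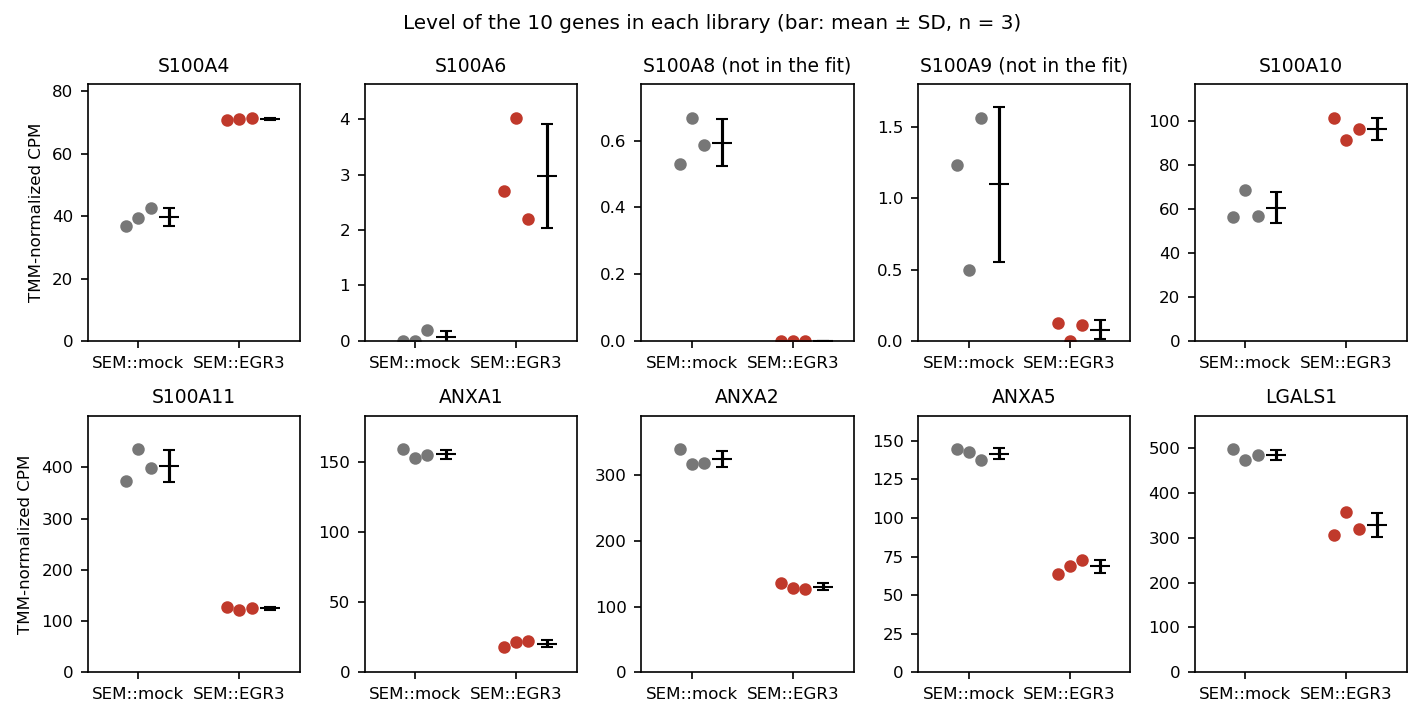
TMM-normalized CPM of each of the 10 genes in each library, with gray points for SEM::mock, red points for SEM::EGR3 and bars for the mean ± SD (n = 3). For every gene the 3 points of a line lie apart from the 3 points of the other line, and S100A8 and S100A9 rest on at most 8 counts per library.

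S100A10, which pairs with annexin A2 at the inner face of the plasma membrane, was the S100 partner that rose. Its level was 56.4, 68.6 and 56.7 CPM in SEM::mock and 101, 91.3 and 96.4 CPM in SEM::EGR3. The lowest SEM::EGR3 library lay above the highest SEM::mock library. The log2 fold change was 0.67 (SE 0.074, adjusted p = 1.58e-08, quasi-likelihood test of edgeR, Benjamini-Hochberg).

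ANXA2, the membrane-binding partner of S100A10, moved in the opposite direction. Its level was 339, 317 and 318 CPM in SEM::mock and 136, 128 and 126 CPM in SEM::EGR3. The libraries of each line lay close together and far from those of the other. This was a log2 fold change of -1.31 (SE 0.055, adjusted p = 1.74e-16, same test). Reads of near-identical gene copies may be split between them or left uncounted, which was not tested. ANXA2P2, the best covered of 3 processed pseudogenes, had 118 counts over all 6 libraries, and ANXA2P1 and ANXA2P3 had 2 each.

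The ratio of the partners within a library, which no scaling of libraries can change, followed from these values. The log2 ratio of S100A10 to ANXA2 counts was -2.59, -2.21 and -2.49 in SEM::mock and -0.43, -0.49 and -0.39 in SEM::EGR3. The means were -2.43 ± 0.20 and -0.44 ± 0.050 (SD, n = 3), a difference of 1.99 with an exact permutation p of 0.1. All 3 SEM::EGR3 libraries thus held more S100A10 counts per ANXA2 count than any SEM::mock library.

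S100A11, a partner of annexin A1 with known roles in membrane repair, was lower in SEM::EGR3. Its level was 373, 435 and 398 CPM in SEM::mock and 128, 123 and 125 CPM in SEM::EGR3. The SEM::EGR3 libraries differed little among themselves, and none came near SEM::mock. Its log2 fold change was -1.68 (SE 0.059, adjusted p = 5.01e-18, quasi-likelihood test of edgeR, Benjamini-Hochberg). The processed pseudogenes S100A11P1, S100A11P2 and S100A11P5 had 10, 15 and 1 counts over all libraries.

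ANXA1, a mediator of glucocorticoid action that limits inflammation, showed the steepest fall of the 8 genes. Its level was 159, 152 and 155 CPM in SEM::mock and 17.8, 21.6 and 22.3 CPM in SEM::EGR3. These were 793 to 913 counts against 161 to 277, although the SEM::EGR3 libraries were the deeper ones. The fitted log2 fold change was -2.94 (SE 0.077, adjusted p = 1.14e-20), a level 7.69-fold lower in SEM::EGR3.

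The fall of ANXA1 was larger than that of its partner. The log2 ratio of S100A11 to ANXA1 counts was 1.23, 1.51 and 1.36 in SEM::mock and 2.85, 2.51 and 2.49 in SEM::EGR3. The libraries did not overlap, and the means of 1.37 ± 0.14 and 2.61 ± 0.20 (SD, n = 3) differed by 1.24 with an exact permutation p of 0.1.

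ANXA5, which binds phosphatidylserine and is the probe used to stain dying cells, was also lower. Its level was 144, 143 and 138 CPM in SEM::mock and 64.1, 68.8 and 73.0 CPM in SEM::EGR3. The groups were well separated. Its fitted log2 fold change was -1.05 (SE 0.063, adjusted p = 1.56e-13).

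LGALS1, the galectin-1 gene on chromosome 22 (chr22:37675608-37679806, plus strand, GRCh38), had the smallest fitted change of the 8. Its level was 496, 474 and 484 CPM in SEM::mock and 305, 358 and 319 CPM in SEM::EGR3. SEM::EGR3 replicate 2 was the nearest to SEM::mock but still below it. The log2 fold change was -0.57 (SE 0.057, adjusted p = 3.48e-09).

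S100A4, which binds non-muscle myosin and is known for its part in cell motility, was higher in SEM::EGR3. Its level was 36.8, 39.6 and 42.6 CPM in SEM::mock and 71.0, 71.2 and 71.5 CPM in SEM::EGR3. The SEM::EGR3 libraries were almost equal, and all lay above the SEM::mock libraries. The log2 fold change was 0.85 (SE 0.072, adjusted p = 1.64e-10, quasi-likelihood test of edgeR, Benjamini-Hochberg).

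S100A6, a calcium sensor that binds CACYBP, the calcyclin-binding protein, was close to the detection limit in SEM::mock. SEM::mock gave 0, 0 and 1 counts, and SEM::EGR3 gave 42, 30 and 20. The transcript was therefore seen in every SEM::EGR3 library and in 1 SEM::mock library. The ratio of summed counts per library size was 48.1, with an exact 95% interval of 8.41 to 1919 that covers counting error only. The fitted log2 fold change was 5.27 (SE 0.68, adjusted p = 2.09e-07, quasi-likelihood test of edgeR), and it was 7.66 without SEM::mock replicate 3, which held the single count. S100A6 shares 23 exonic bases with the antisense gene BX470102.1, which had at most 1 count in a library.

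S100A8 and S100A9 form calprotectin, an antimicrobial complex that neutrophils and monocytes release, and both were too low for the test across genes. S100A8 was counted 3, 4 and 3 times in SEM::mock and 0 times in each SEM::EGR3 library. Taking 3 counts per library as the most that a count of 0 allows, it was at least 1.93-fold lower in SEM::EGR3. For S100A9 the counts were 7, 3 and 8 in SEM::mock and 2, 0 and 1 in SEM::EGR3. Both genes were thus seen at trace level in SEM::mock, with non-overlapping libraries. The ratio of summed S100A9 counts per library size was 11.5 in favour of SEM::mock, with an exact 95% interval of 3.35 to 60.9 for counting error. The exact permutation p was 0.1 for each of the 2 genes. The myeloid markers moved in both directions beside these traces. Of 16 listed, 6 were tested, with 3 higher and 2 lower in SEM::EGR3. Their higher sum in SEM::mock came mostly from LYZ (154 ± 8.73 against 42.5 ± 1.31 CPM) and MS4A3 (62.0 ± 3.46 against 5.41 ± 0.348 CPM), while CEBPA (12.4 ± 0.763 against 126 ± 1.19 CPM) and ITGAM (4.08 ± 0.537 against 13.1 ± 1.26 CPM; SD, n = 3) were higher in SEM::EGR3. MPO, CTSG and CSF1R had counts in SEM::EGR3 libraries alone.

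**Figure D3:**
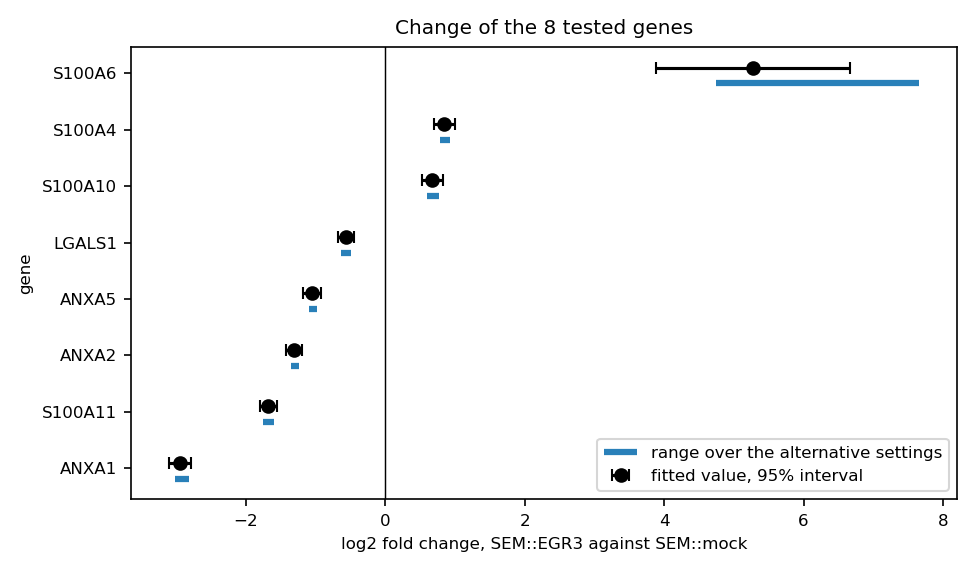
Log2 fold change of SEM::EGR3 against SEM::mock for the 8 tested genes, with black points and bars for the fitted value and its 95% interval and blue lines for the range over the alternative settings. No interval and no range reaches 0, and S100A6 has the widest of both.

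All 6 S100 genes lie on chromosome 1, within the run of S100A genes between bases 151982915 and 153632039 (GRCh38). GENCODE release 29 places 15 S100A genes there, of which 14 were in the table and 8 were tested. In order along the chromosome, S100A10 was higher and S100A11 lower in SEM::EGR3. S100A6, S100A5 and S100A4 follow each other and were all higher. S100A5 went from 5, 6 and 4 to 49, 36 and 39 counts (log2 fold change 2.11, SE 0.34, adjusted p = 5.09e-06, quasi-likelihood test of edgeR). Like S100A6, S100A5 passed the count filter only through its SEM::EGR3 counts, so its call as higher was nearly given.

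Farther along the run the direction turned. S100A16 was counted 102, 122 and 98 times in SEM::mock and 49, 32 and 34 times in SEM::EGR3 (log2 fold change -2.41, SE 0.15, adjusted p = 7.36e-13). S100A13, which assists the release of growth factors that lack a signal peptide, fell from 238 ± 29.4 to 67.5 ± 7.05 CPM (SD, n = 3; log2 fold change -1.83, SE 0.079). S100A1, a regulator of calcium cycling in muscle, fell from 11.2 ± 0.982 to 5.72 ± 0.452 CPM, though its span overlaps that of S100A13 on the other strand and the strand setting of the counting is not given. S100A7, S100A3, S100A2 and S100A14 were too low to be tested, and S100A3 lies inside the span of S100A4. Among all 60 listed genes of the region 12 were tested, of which 5 were higher, 6 lower and 1 missed the threshold.

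**Figure D4:**
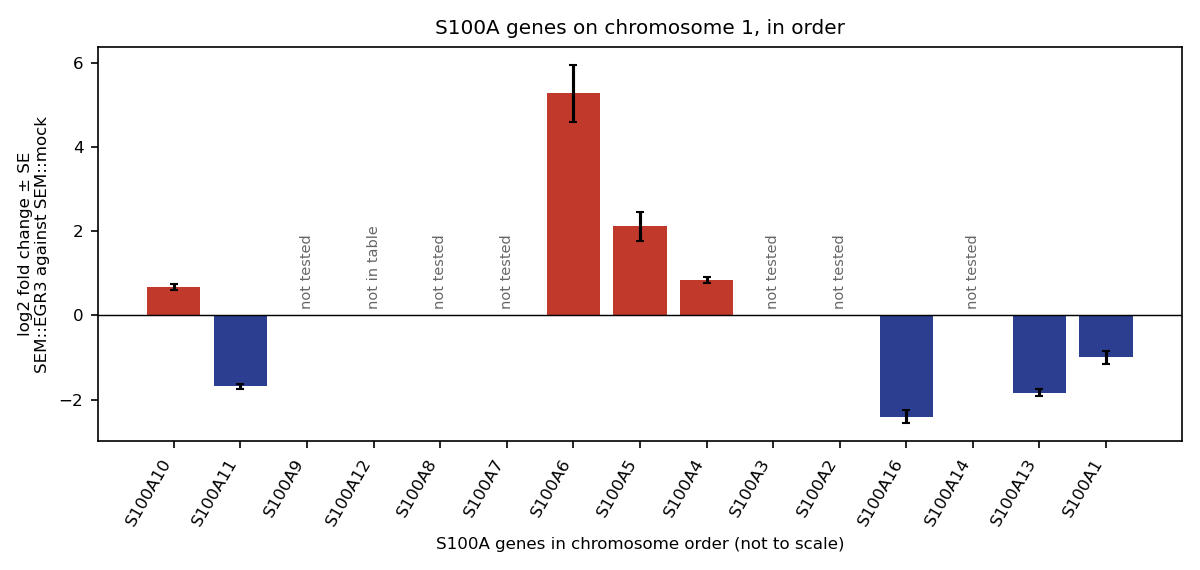
Log2 fold change of SEM::EGR3 against SEM::mock for the S100A genes in their order on chromosome 1 (not to scale), with bars for the fitted value and error lines for its SE. S100A6, S100A5 and S100A4 stand side by side above 0, and S100A16, S100A13 and S100A1 stand below 0. S100A6 and S100A5 passed the count filter only through their SEM::EGR3 counts.

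The other members of the same families moved in both directions. Of 14 other S100 genes, 11 were in the table and 5 were tested, with 2 higher and 3 lower in SEM::EGR3 and a median log2 fold change of -0.996. S100B, best known from glial cells and melanocytes, had 0 counts in all SEM::mock libraries and 113, 66 and 88 in SEM::EGR3. Of 10 other annexins, 6 were tested, with 1 higher, 3 lower and 2 that missed the threshold, at a median of -0.29. ANXA9 rose (log2 fold change 1.11, SE 0.26) and ANXA4 fell (-0.93, SE 0.11). ANXA11 had a log2 fold change of 0.03 (SE 0.060, adjusted p = 0.653) and ANXA3 one of -0.16 (SE 0.14, adjusted p = 0.317).

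Of 15 other galectin genes, 6 were tested, with 1 higher, 3 lower and 2 that missed the threshold, at a median of -0.25. LGALS9, a galectin with a pair of glycan-binding domains, rose (log2 fold change 1.07, SE 0.21), and LGALS12 (-2.11, SE 0.26) and LGALS8 (-0.88, SE 0.082) fell. LGALS3 had a log2 fold change of 0.46 (SE 0.24, adjusted p = 0.0973). In all, 13 of the 17 tested other S100, annexin and galectin genes passed, 4 higher and 9 lower. The share of all tested genes that passed was 68.5%, with 36.5% higher and 32% lower.

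Genes that act with S100A10 and annexin A2 on plasminogen, which is turned into the protease plasmin at the cell surface, were mostly lower. Of 9 listed, 6 were tested, with 1 higher and 5 lower, at a median log2 fold change of -0.92. PLAU, the urokinase that activates plasminogen, was counted 51, 51 and 56 times in SEM::mock and 25, 15 and 18 in SEM::EGR3 (log2 fold change -2.37, SE 0.21). AHNAK, a large scaffold bound by the complex of S100A10 and annexin A2, fell from 57.7 ± 3.68 to 20.2 ± 1.43 CPM (SD, n = 3; log2 fold change -1.52, SE 0.085). ENO1, an enolase that also binds plasminogen, fell too (log2 fold change -0.82, SE 0.048). PLGRKT, a plasminogen receptor, was the exception and rose from 9.01 ± 1.01 to 37.3 ± 1.87 CPM (log2 fold change 2.05, SE 0.11).

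For annexin A1, the receptor genes FPR1 and FPR3 were too low to be tested, with at most 5 counts in a library. PLA2G4A, the cytosolic phospholipase that annexin A1 is known to restrain, fell from 11.6 ± 2.02 to 2.31 ± 0.208 CPM (SD, n = 3; log2 fold change -2.35, SE 0.20, adjusted p = 1.29e-10, quasi-likelihood test of edgeR). It was the 1 tested gene of the 4 listed.

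Receptors for extracellular S100A8 and S100A9 were split, with 2 higher and 2 lower among 4 tested of 7 listed, at a median of -0.21. CD33, an inhibitory receptor of myeloid cells, fell from 124 ± 4.02 to 47.8 ± 2.20 CPM (SD, n = 3; log2 fold change -1.37, SE 0.064), and AGER, the receptor RAGE, fell from 3.29 ± 1.20 to 1.68 ± 0.341 CPM (log2 fold change -1.05, SE 0.30). BSG, or basigin, rose (log2 fold change 0.62, SE 0.052). LY96, the partner of TLR4, was counted 3, 2 and 2 times in SEM::mock and 37, 26 and 18 in SEM::EGR3. LY96 passed the count filter only through its SEM::EGR3 counts, so its call as higher was nearly given. TLR4 and CD14 had at most 6 counts in a library.

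Of 5 intracellular S100 targets, 2 were higher, 2 lower and 1 missed the threshold, at a median of -0.06. MYH9, the heavy chain of the non-muscle myosin that S100A4 binds, rose by a log2 fold change of 0.19 (SE 0.053), and CACYBP, the partner of S100A6, had one of -0.25 (SE 0.054).

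Scramblases and flippases set how much phosphatidylserine, the ligand of annexin A5, faces outward. Of 7 listed, 6 were tested, with 2 higher, 1 lower and 3 that missed the threshold, at a median of 0.08. XKR8, a scramblase active in apoptosis, was counted 0, 3 and 1 times in SEM::mock and 27, 17 and 22 in SEM::EGR3. TMEM30A, a subunit of flippases, rose (log2 fold change 0.42, SE 0.064). ANO6 and ATP11A had log2 fold changes of -0.01 (SE 0.10) and 0.07 (SE 0.11).

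Proteins to which galectin-1 binds had genes that moved both ways, with 8 tested of 10 listed. Of these, 4 were higher, 2 lower and 2 missed the threshold, at a median of 0.30. IGLL1, a chain of the pre-B cell receptor and itself a B lineage marker, was counted 0, 0 and 1 times in SEM::mock and 757, 405 and 433 in SEM::EGR3. SPN, also called CD43, rose (log2 fold change 0.59, SE 0.058), and LAMP2, a lysosomal membrane glycoprotein, fell (-0.92, SE 0.053). Of 10 glycosyltransferases that build or mask galectin ligands, 6 were higher, 3 lower and 1 missed the threshold, at a median of 0.45. GCNT1, which branches the core of O-glycans, was counted 1, 3 and 0 times in SEM::mock and 212, 90 and 132 in SEM::EGR3. MGAT4A rose (log2 fold change 1.24, SE 0.16) and MGAT3, whose bisecting residue blocks branching, fell (-1.03, SE 0.094).

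Over the 40 tested genes of these 7 groups of receptors, partners and enzymes, 17 were higher and 16 lower in SEM::EGR3, beside the 68.5% of all tested genes that passed.

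**Figure D5:**
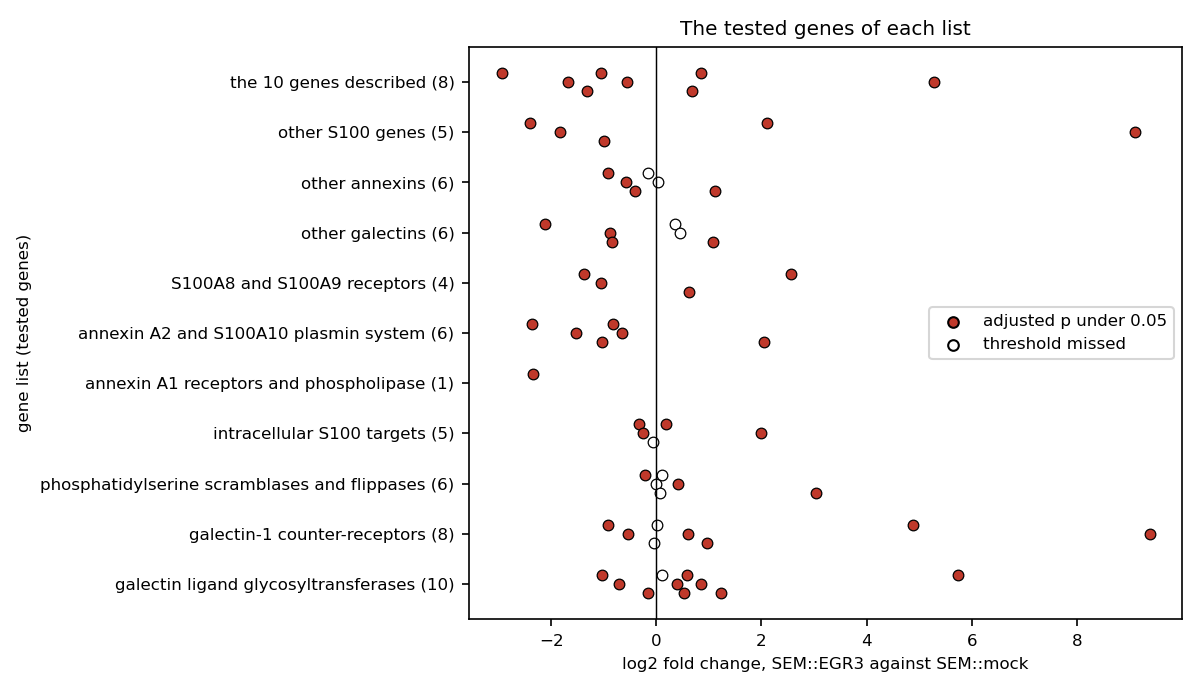
Log2 fold change of SEM::EGR3 against SEM::mock for the tested genes of each list, 1 point per gene, with red points for an adjusted p under 0.05 and white points for genes that missed it. Most lists hold genes on both sides of 0, and the plasmin system has 5 of its 6 tested genes below 0.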

How the data were processed

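RNA of SEM::mock and SEM::EGR3 was measured by MACE-Seq. The table deposited by the authors gives unnormalized whole counts for each gene in each library. It also holds deposited CPM, headed TPM, which are counts over a library total, with 73.6% to 75.8% of that total in listed genes. A further deposited set, a signal of counts divided by 1 size factor per library, was used only to check this scaling, as were the CPM. The deposited fold changes and p-values of their own comparison were not used. The submitters' processing notes name bcl2fastq, Bowtie2, HTSeq and GRCh38. Versions, annotation, strand setting and use of molecular identifiers are not given in the sources used here. Column headings spelled ERG3 were read as SEM::EGR3, the only other line of the labels.

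Counts were filtered with filterByExpr, scaled by TMM and compared with glmQLFit and glmQLFTest of edgeR 4.0.16 (R 4.3.3) over all 6 libraries, with Benjamini-Hochberg adjustment over 15465 genes. Genes with few counts in SEM::mock, such as S100A5, S100A6, S100B, LY96, IGLL1, GCNT1 and XKR8, passed the filter only through their SEM::EGR3 counts. The code was tested on simulated data. Levels are TMM-normalized CPM. A gene with at most 3 counts in each library of a line counted as at the detection limit. Intervals on counts cover counting error only. Replicates of a line differed by more than counting noise (chi-square per degree of freedom 1.71 to 3.32), so none were merged. Positions are from GENCODE release 29, and promoter sequences from RefSeq.

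The 10 genes, the related lists and the marker lists were chosen with earlier results of these data known. Of each related list, the text names at most 5 genes that passed, by largest absolute fold change, with libraries that did not overlap and at least 10 counts on average in the higher line, as well as genes that missed the threshold or lay near the detection limit. Alternatives were DESeq2 1.42.0, other normalizations and filters, the replicate number as a block, a minimum fold change and leaving out each library. A few items are not reported here.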

Additional observations from a re-analysis of the deposited data

How the results depend on the processing

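The 8 tested genes kept their direction and their side of the threshold under DESeq2, no normalization factors, upper-quartile normalization, DESeq2 size factors in edgeR, no filter, the replicate block and the omission of each library, and 7 of them did with at least 10 counts in every library, which leaves S100A6 out. The log2 fold change of ANXA1 lay between -3.01 and -2.81, and that of LGALS1 between -0.63 and -0.49. Without the filter, S100A8 (log2 fold change -5.32, adjusted p = 0.000426) and S100A9 (-3.33, adjusted p = 6.08e-05) also passed edgeR's quasi-likelihood test, though these values rest on counts near 0, and the median of all genes shifted by 0.19. When a log2 fold change of 1 or more in size was required, 1 of the 10 genes was higher, and 2581 of all tested genes were higher and 1315 lower. The replicate block called 10081 genes in place of 10594, with 5388 higher and 4693 lower. The replicate numbers showed no sign of pairing, as the deviations of same-numbered libraries from the mean of their line correlated at -0.105, -0.0635 and -0.0340. With 3 libraries per line, such deviations cannot show that the samples were prepared without pairing. DESeq2 called 9391 genes. Without normalization factors the median of all tested genes shifted by 0.078. Depth limits S100A6, S100A8 and S100A9, for which a line had at most 3 counts per library.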

Other observations

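A pair of genes was looked at after their values were seen, because their products bind annexin A2 or S100 proteins. ANXA2R, a receptor for annexin A2, was counted 38, 38 and 26 times in SEM::mock and 895, 409 and 523 in SEM::EGR3 (log2 fold change 3.22, SE 0.11, adjusted p = 3.65e-18, quasi-likelihood test of edgeR, Benjamini-Hochberg). S100PBP, an S100P binding protein, was counted 244, 222 and 204 times in SEM::mock and 512, 240 and 256 in SEM::EGR3 (log2 fold change -0.35, SE 0.088, adjusted p = 0.000976).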
